A study of Mus musculus with 6 samples.

Results

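Secretory epithelium of the female reproductive tract was followed in mouse ovary RNA through 10 genes: Pax8, Ovgp1, Ehf, Cftr, Vtcn1, Wfdc2, Epcam, Plet1, Cldn7 and Rab25. They were picked by symbol because their values stood high in the libraries of mice given MIT-001, and were found by NCBI Gene ID. They make up 10 of 45679 genes with a symbol, and all 10 were among the 16473 genes tested, which had at least 1 TPM in at least 2 libraries. TPM is a transcript level scaled for transcript length and library size. The study used wild type BDF1 mice, a hybrid strain, injected into the abdomen over 7 days. The groups were 8-week mice given PBS (young PBS), 65-week mice given PBS (old PBS) and 65-week mice given MIT-001 at 0.5 mg/kg (old MIT-001), with 2 ovary libraries each. MIT-001 is a scavenger of reactive oxygen species directed to mitochondria. The animals behind each library are not stated, so any p-value measures only the spread between these libraries, which may be technical.

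The oviduct, the uterus and the ducts near the ovary are lined by a simple epithelium of secretory and ciliated cells. Secretory cells carry the transcription factor PAX8, seal their borders with claudins, move chloride and bicarbonate through CFTR and release glycoproteins such as oviductin, the product of Ovgp1, which coats the ovulated egg. PAX8 is also known in the rete ovarii, a tubular remnant beside the ovary, and in thyroid and kidney. The ovary itself is covered by a mesothelium-like surface layer that shares keratins with these epithelia.

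Some libraries went against their age labels. The oocyte gene Gdf9 stood higher under the old PBS label (116 and 108 TPM) than under the young PBS label (73.3 and 9.51 TPM). The antibody gene Igkc stood lower under the old PBS label (9.50 and 10.6 TPM) than under the young PBS label (1340 and 174 TPM). Groups are therefore named as labelled, and directions hold for the labels only. The summed level of 6 steroidogenic genes was 19717 to 38765 TPM over the 6 libraries, so all carried ovarian steroid-making tissue. Between 14346 and 16338 genes per library reached 1 TPM. In whole tissue, more cells of a type and more RNA per cell cannot be told apart.

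The 10 genes lie on 6 chromosomes and are not neighbours. Pax8, Ehf and Wfdc2 are on chromosome 2, 78.8 and 61.3 megabases apart, and Rab25, Vtcn1 and Ovgp1 are on chromosome 3, with gaps of 12.3 and 5.08 megabases. On mm10 the files place Pax8 (Gene ID 18510) at chr2:24420551-24475599 on the minus strand, Ovgp1 (12659) at chr3:105973802-105987423, Plet1 (76509) at chr9:50494525-50505639 and Epcam (17075) at chr17:87635979-87651127, the last 3 on the plus strand. Ehf (13661) is at chr2:103263431-103303275 and Rab25 (53868) at chr3:88542029-88548279, both on the minus strand. Wfdc2 (67701) is at chr2:164562562-164568510, Vtcn1 (242122) at chr3:100825459-100896922, Cftr (12638) at chr6:18170687-18322770 and Cldn7 (53624) at chr11:69964779-69967886, all on the plus strand. To show where transcription of these genes begins, the sequence before the start is given for 4 of them. They have the highest mean TPM under the old MIT-001 label among genes with a single promoter entry whose start is the files' gene edge. Each line gives the 250 bases before the start, 5′ to 3′ on the gene's strand, from RefSeq on GRCm38.p6. Capitals mark the E-box CACCTG or its reverse complement CAGGTG, and the core GGAAG of ETS factors such as EHF or its reverse complement CTTCC.
Ovgp1, chr3:105973552-105973801, plus strand: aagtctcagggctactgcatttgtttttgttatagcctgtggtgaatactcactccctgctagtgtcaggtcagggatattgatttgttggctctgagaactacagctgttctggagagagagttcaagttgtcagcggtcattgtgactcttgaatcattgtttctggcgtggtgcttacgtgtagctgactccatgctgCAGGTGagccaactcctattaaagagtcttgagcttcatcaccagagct
Plet1, chr9:50494275-50494524, plus strand: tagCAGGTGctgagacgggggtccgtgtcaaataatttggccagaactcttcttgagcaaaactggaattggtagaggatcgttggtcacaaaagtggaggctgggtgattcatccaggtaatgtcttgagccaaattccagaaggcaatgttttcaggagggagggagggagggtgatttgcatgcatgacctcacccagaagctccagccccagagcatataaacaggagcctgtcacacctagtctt
Epcam, chr17:87635729-87635978, plus strand: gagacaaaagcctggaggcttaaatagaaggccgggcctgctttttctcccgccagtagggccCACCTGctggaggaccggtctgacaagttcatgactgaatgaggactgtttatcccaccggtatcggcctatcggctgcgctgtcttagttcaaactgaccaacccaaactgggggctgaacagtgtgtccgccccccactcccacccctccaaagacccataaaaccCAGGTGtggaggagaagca
Pax8, chr2:24475600-24475849, minus strand: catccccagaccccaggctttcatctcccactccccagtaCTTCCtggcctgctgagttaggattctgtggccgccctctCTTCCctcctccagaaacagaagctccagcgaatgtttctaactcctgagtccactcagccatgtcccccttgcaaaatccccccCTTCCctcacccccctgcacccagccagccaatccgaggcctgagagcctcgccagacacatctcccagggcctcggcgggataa

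Ovgp1 and Plet1 held 1 E-box each, Epcam held 2 and Pax8 none. Pax8 held 3 ETS cores, and the other 3 windows held none. RefSeq entries were matched for 9 of the 10 genes, without Ehf, and for 8 of these genes a window ends at the gene edge of the files. Taking 1 window per gene and both strands, the E-box was in 5 of 9 (Epcam, Ovgp1, Plet1, Rab25 and Wfdc2), against 17.1% of 27025 windows of the same length. Another entry of Cldn7, not counted here, had a window with 2 E-boxes. The ETS core was in 5 of 9 (Cftr, Cldn7, Pax8, Rab25 and Wfdc2), against 63.7% of all. A TATA box, TATAAA, was in Plet1 only, against 12.9% of all, and the grainyhead-like motif AACCNGGTT was in none of the 9, against 0.237% of all. These matches describe letters in a window and do not show binding.

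Pax8, the transcription factor that marks this lineage, was at 27.9 and 18.3 TPM in replicates 1 and 2 labelled old MIT-001. It was at 7.06 and 1.95 TPM under the young PBS label and at 0.585 and 0.178 TPM under the old PBS label. The 3 groups did not overlap, and the mean of the old MIT-001 libraries was 60.6 times that of the old PBS libraries. That ratio was 129.9 without old PBS replicate 1 and 39.5 without old PBS replicate 2. Ehf, an ETS transcription factor of epithelia, was at 25.3 and 16.9 TPM, at 3.04 and 2.43 TPM, and at 1.64 and 2.53 TPM in the same order of groups. Here the young PBS and old PBS libraries overlapped, and only the old MIT-001 libraries stood apart, at 10.1 times the old PBS mean.

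Ovgp1, the secreted oviduct glycoprotein, had the highest mean level of the 10 genes in the old MIT-001 libraries. It was at 567 and 215 TPM under the old MIT-001 label, at 27.8 and 128 TPM under the young PBS label, and at 20.3 and 30.5 TPM under the old PBS label. Both old MIT-001 libraries lay above all others, by 1.68 times for the lower of them against the highest PBS library, but the pair differed by 2.63 times, and young PBS replicate 1 lay within the old PBS range. Wfdc2, a secreted protein of the whey acidic protein family, was at 52.6 and 19.1 TPM, at 8.06 and 40.2 TPM, and at 0.325 and 1.44 TPM in the same order. It was the only one of the 10 in which the old MIT-001 and young PBS libraries overlapped. Both old PBS libraries were below all 4 others.

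Cftr, the chloride and bicarbonate channel of secretory cells, was at 13.6 and 9.46 TPM under the old MIT-001 label, at 1.44 and 2.11 TPM in young PBS and at 0.841 and 0.951 TPM in old PBS. The groups did not overlap, and the PBS libraries stayed within 0.841 to 2.11 TPM. Vtcn1, a B7-family surface protein that restrains T cells, was at 10.3 and 6.76 TPM, at 0.913 and 1.34 TPM, and at 0.0533 and 0.247 TPM in the same order. Its old PBS values rested on a mean read depth over the gene of 0.042 and 0.191, the lowest of the 10 genes, and its ratio of 56.7 to the old PBS mean was 34.4 without old PBS replicate 1 and 159.7 without old PBS replicate 2.

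Epcam, an epithelial cell adhesion protein, was at 101 and 94.2 TPM under the old MIT-001 label, at 57.0 and 17.4 TPM in young PBS and at 9.36 and 3.18 TPM in old PBS. Its old MIT-001 libraries were the most alike of the 10 genes, differing by 1.07 times. Plet1, a surface protein anchored in the membrane by a lipid, was at 182 and 126 TPM, at 13.0 and 37.6 TPM, and at 7.19 and 3.19 TPM in the same order. Cldn7, a claudin of epithelial junctions, was at 18.4 and 14.7 TPM, at 3.19 and 3.64 TPM, and at 0.618 and 0.331 TPM. Neither Epcam, Plet1 nor Cldn7 overlapped between any groups. Rab25, a small GTPase of recycling endosomes, was at 14.0 and 17.2 TPM, at 2.54 and 3.83 TPM, and at 0.908 and 0.576 TPM. Rab25 was the exception in the old MIT-001 group, where replicate 1 was the higher library for the other 9 genes.

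**Figure D1:**
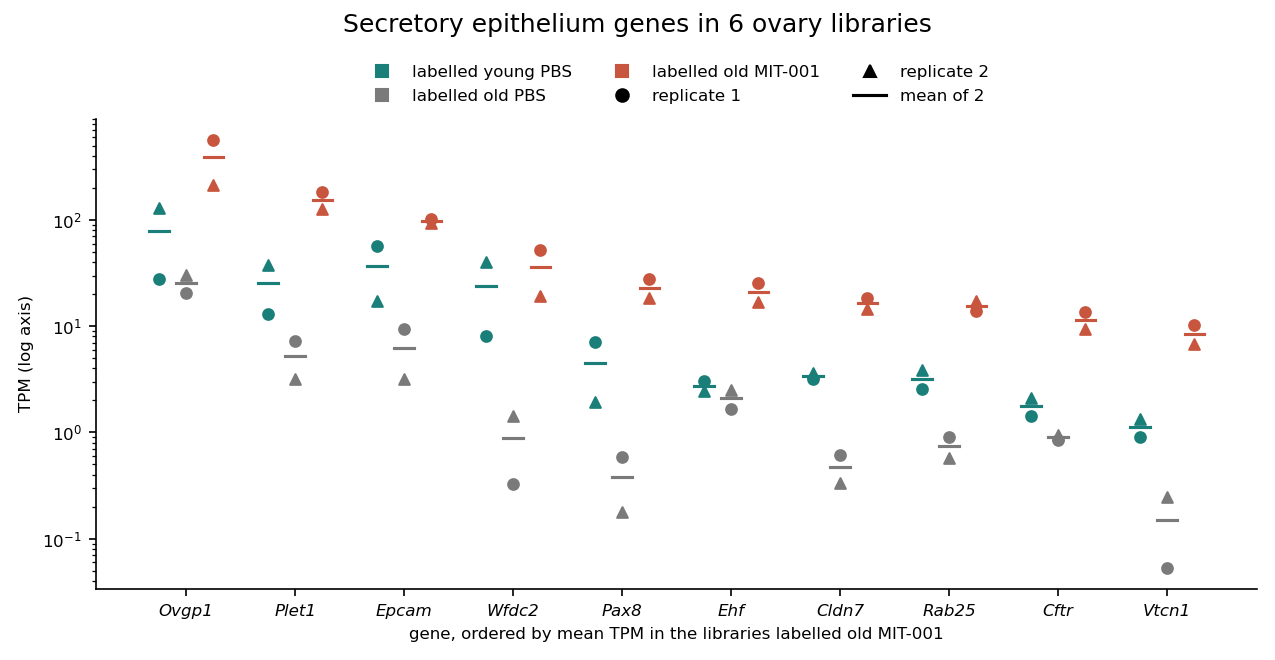
TPM on a log axis for each of the 10 genes in 6 libraries; colour gives the labelled group, circles and triangles replicates 1 and 2, and bars the mean of 2. For 9 of 10 genes both libraries labelled old MIT-001 lie above all 4 PBS libraries; Wfdc2 is the exception.

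By mean TPM under the old MIT-001 label the order was Ovgp1 (391 ± 249, SD, n = 2 here and for each gene), Plet1 (154 ± 39.1), Epcam (97.7 ± 4.98), Wfdc2 (35.8 ± 23.7), Pax8 (23.1 ± 6.77), Ehf (21.1 ± 5.93), Cldn7 (16.5 ± 2.61), Rab25 (15.6 ± 2.30), Cftr (11.6 ± 2.96) and Vtcn1 (8.51 ± 2.48). The first 3 were apart from their next neighbour in both libraries. The ranges of neighbours from Wfdc2 to Rab25 overlapped, as did those of Cftr and Vtcn1. The order was not kept between libraries. In young PBS replicate 1 Epcam stood at 57.0 TPM against 27.8 TPM for Ovgp1, and in young PBS replicate 2 at 17.4 TPM against 128 TPM.

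The 10 genes were chosen for being high in the old MIT-001 libraries, so the folds against old PBS and young PBS are a description with no test. On the log2(TPM + 1) scale, which understates changes of low genes, the 10 log2 fold changes against old PBS ran from 2.71 ± 0.33 (SE, n = 2 libraries a group) for Cftr to 4.70 ± 0.56 for Plet1. Their median was 3.66, against 0.03 over all 16473 genes. Between these were Ehf at 2.83, Vtcn1 at 3.03, Rab25 at 3.25, Cldn7 at 3.57, Ovgp1 at 3.76, Epcam at 3.91, Pax8 at 4.11 and Wfdc2 at 4.19. All 10 were higher with no overlap of the groups, as the choice of genes implies, where 27.2% of all genes tested were.

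Against young PBS the log2 fold changes of the old MIT-001 libraries had a median of 2.16, against 0.24 over all genes, and ran from 0.76 ± 0.82 for Wfdc2 to 2.71 ± 0.56 for Plet1. Epcam was at 1.59 and Ehf at 2.54. There was no overlap for 9 of 10 genes, without Wfdc2, where 37.3% of genes tested were higher in that way. Against all 4 PBS libraries the same 9 genes stood higher without overlap, where 15.1% of genes tested did. For Ehf, Cftr and Vtcn1 the lower old MIT-001 library was 5.56, 4.48 and 5.05 times the highest PBS library, and for Epcam it was 1.65 times. Wfdc2 turned to a log2 fold change of -0.33 without young PBS replicate 1 and was at 1.86 without young PBS replicate 2. Over all 16473 genes limma called 0.0% in this comparison, with 17.1% higher and 0.813% lower at an unadjusted p below 0.05.

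The remaining comparison, old PBS against young PBS, asks how levels differ with labelled age without the compound. It uses the same old PBS libraries against which the genes were chosen, so it is not independent of the choice. The libraries labelled old PBS were lower for all 10 genes in mean log2 value, with a median log2 fold change of -1.42 against 0.23 over all genes, of which 68.1% lay above 0. The values ran from -3.43 ± 0.82 for Wfdc2 and -2.31 ± 0.64 for Epcam to -0.54 ± 0.33 for Cftr and -0.29 ± 0.34 for Ehf. By limma over all genes, 0 of 10 passed (adjusted p 0.197 to 0.704), where 0.0364% of genes did. At an unadjusted p below 0.05, 7 of 10 were lower, where 3.55% of genes were. For 8 of 10 genes, without Ovgp1 and Ehf, the old PBS libraries lay below both young PBS libraries, where 11.0% of genes did. Without young PBS replicate 1, 2 of 10 passed as lower, Plet1 and Wfdc2, where 1.78% of genes passed as lower in that fit. Young PBS was then replicate 2 alone, the higher library for both genes (37.6 against 13.0 and 40.2 against 8.06 TPM). A lone library shows no spread of its group, so no conclusion is drawn from that fit. The log2 fold changes of Plet1 and Wfdc2 were -2.72 and -4.52 there. They were -1.26 and -2.33 without young PBS replicate 2 instead. Counts of genes called with each library left out are given at the end.

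**Figure D2:**
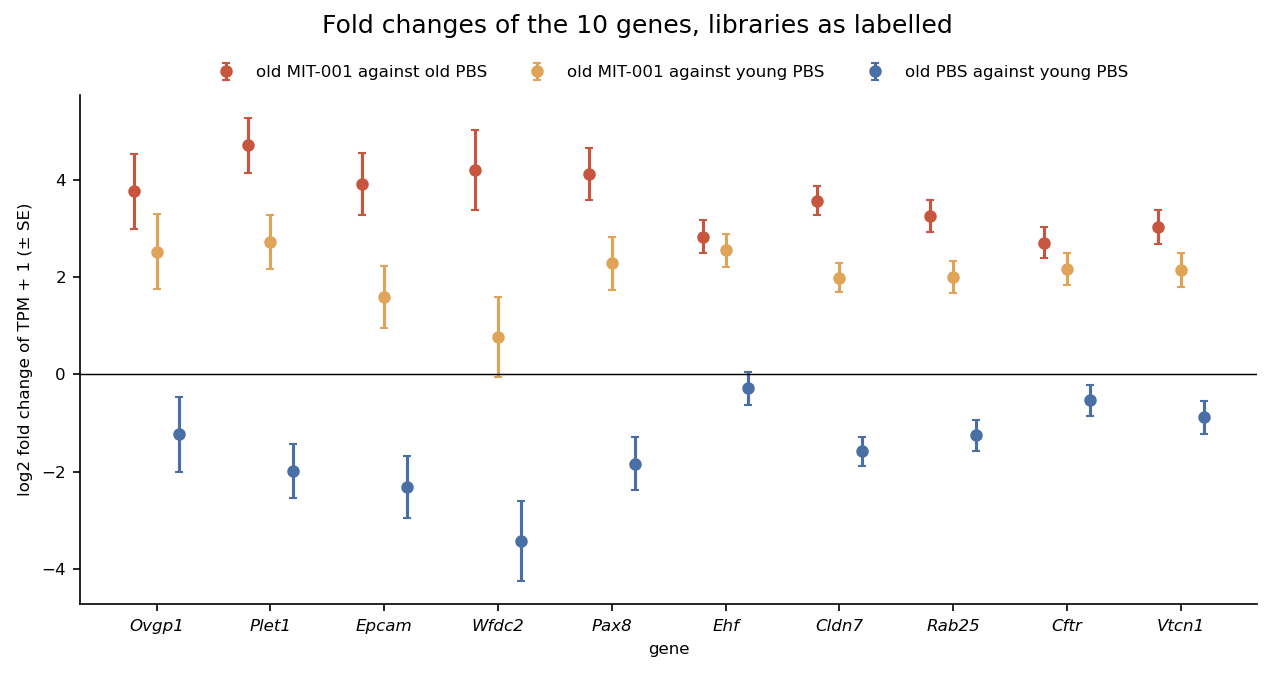
Log2 fold changes of TPM + 1 with standard errors (n = 2 libraries a group) for the 10 genes in the 3 comparisons of groups as labelled, which share libraries. The old MIT-001 values against old PBS run from 2.71 to 4.70, and the old PBS values against young PBS lie below 0 for all 10.

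Scaling shifted the level of all genes more than 0.1 in these log2 values for the comparisons with young PBS. For old MIT-001 against old PBS, centring each library moved the median of all genes from 0.03 to -0.06. Centring each library on its median moved the median of all genes from 0.23 to -0.09 for old PBS against young PBS and from 0.24 to -0.17 for old MIT-001 against young PBS. The medians of the 10 genes were then -1.74 and 1.74. Every direction of the 10 genes against old PBS was kept in all 14 alternatives.

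The 10 genes differed in how replicates spread. In the young PBS pair Pax8, Epcam and Ehf were higher in replicate 1, by 3.62, 3.27 and 1.25 times, and the other 7 were higher in replicate 2. Replicate 1 was at 0.217, 0.200 and 0.346 times replicate 2 for Ovgp1, Wfdc2 and Plet1. Cldn7 was nearly level between them, at 0.877 times. Ovgp1, Wfdc2 and Plet1 therefore differed between these libraries opposite to Pax8 and Epcam, which was seen after the values were known. In the old MIT-001 pair Ovgp1 and Wfdc2 had the widest gaps, 2.63 and 2.76 times, and the remaining 8 lay between 0.811 and 1.52 times. Summed over the 10 genes, the level was 1012 and 539 TPM in old MIT-001, 124 and 239 TPM in young PBS and 41.8 and 43.2 TPM in old PBS.

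Close relatives of the 10 genes did not all follow them. Cldn3, a claudin like Cldn7, was at 37.5 and 51.8 TPM under the old MIT-001 label, at 10.1 and 23.5 TPM in young PBS and at 2.90 and 2.70 TPM in old PBS, with no overlap of groups. Cldn4 was at 7.47 and 33.2 TPM, at 1.80 and 3.36 TPM, and at 2.01 and 1.85 TPM. Cldn1, named after its values were seen, did not follow, at 10.4 and 9.24 TPM against 8.87 and 10.2 TPM in old PBS. Rab11a and Rab11b, the widely expressed relatives of Rab25, were near level, with log2 fold changes of -0.07 and -0.05 against old PBS and 92.8 to 132 TPM for Rab11a over all libraries. Elf3, an epithelial ETS factor like Ehf, was at 9.0 and 17.4 TPM in old MIT-001 and between 0.806 and 5.44 TPM in the PBS libraries. Elf5 and Pax2, the relatives of Ehf and Pax8, stayed below 1 TPM in all libraries. Slpi, a protease inhibitor of the Wfdc2 family, was higher in replicate 1 than 2 of all 3 groups (28.2 against 3.01 TPM in old MIT-001, 15.5 against 1.94 TPM in young PBS and 0.955 against 0.126 TPM in old PBS), and Wfdc15b, of the same family, was at 13.9 and 2.88 TPM in old MIT-001 and at most 1.19 TPM elsewhere. Cd274, a B7-family gene like Vtcn1, was highest in young PBS replicate 2, at 8.39 TPM. Of all 30 relatives 15 were higher in old MIT-001 than old PBS without overlap, where 15.5% of all 45679 genes were, and 1 was lower, where 11.9% were. Among the 17 tested, 10 were higher in that way, where 27.2% of genes tested were. The rest of those higher had too low a level to be tested. By limma 0 of 17 tested passed, with 8 higher and 0 lower at an unadjusted p below 0.05, where 7.45% and 4.36% of genes tested were and 0.0182% passed. In a fit of only the 4 libraries compared, 3 passed as higher, Elf3 and Cldn3 among them, where 1.22% of genes did.

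Other genes of secretory epithelium were listed with these results known, so they are no independent support. Of 15 further genes of the Müllerian lineage 11 were higher in old MIT-001 than old PBS without overlap and 0 lower. Over all 45679 genes, tested or not, 15.5% were higher in that way and 11.9% lower. Among the 10 tested, 9 were higher, where 27.2% of genes tested were. Muc1, a membrane mucin, was at 8.25 and 15.1 TPM in old MIT-001 and at 1.06 and 0.635 TPM in old PBS (log2 fold change 2.73 ± 0.38). Sox17 and Emx2, transcription factors of the tract, had log2 fold changes of 1.45 and 1.49, and the phosphate transporter gene Slc34a2 1.71. The list also held genes that were far higher in 1 old MIT-001 library than in the other: Ltf, lactoferrin, was at 111 and 6.87 TPM in the 2 old MIT-001 libraries, and Lcn2, lipocalin, at 14.3 and 200.1 TPM. Folr1, the folate receptor, had a log2 fold change of -0.87 ± 0.62, but its groups overlapped, at 152 and 45.0 TPM against 170.3 and 136 TPM in old PBS. These last 3 were named after their values were seen, as were Cgn, Foxj1, Foxa2 and the organ markers at 0 given further on. The same holds for Esrp1, Grhl1, Zeb2, Snai2, Cxcl15, Prss28 and Prss29. The lists share some genes, such as Cldn3, Elf3 and Slpi.

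Junction and adhesion genes followed the secretory genes in part. Of 20, 16 were higher without overlap and 0 lower, and the median log2 fold change was 1.48. Over all 45679 genes 15.5% were higher in that way and 11.9% lower, and 27.2% of genes tested were higher. Cdh1, E-cadherin, was at 23.2 and 41.9 TPM in old MIT-001, 6.53 and 9.44 TPM in young PBS and 2.29 and 2.36 TPM in old PBS, and Ap1m2, an adaptor for basolateral sorting, had a log2 fold change of 2.22 ± 0.28. Of 11 protease and inhibitor genes 9 were higher and 0 lower, beside the same shares. The inhibitor gene Spint1 was at 2.52 ± 0.37, and the membrane proteases St14 at 2.73 ± 0.45 and Prss8 at 1.68 ± 0.31. Beside the same shares, 11 of 16 epithelial transcription and splicing factors were higher and 2 lower, and 8 of the 12 tested were higher. Those higher included Grhl2, at 4.67 and 3.54 TPM in old MIT-001 and below 1 TPM in the other 4 libraries. The 2 lower were Grhl1 and the splicing factor gene Esrp1, at 5.76 and 4.52 TPM against 7.73 and 6.48 TPM in old PBS. The list also held the mesenchymal factor genes Zeb1, Zeb2 and Snai2, so its counts are not of epithelial genes alone. Zeb1 was among those higher, with a log2 fold change of 0.43.

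Transport and trafficking genes were more divided. Of 15 apical ion and water genes 8 were higher without overlap and 1 lower, where 15.5% and 11.9% of all 45679 genes were. Among the 11 tested, 7 were higher, where 27.2% of genes tested were. Scnn1b, a subunit of the epithelial sodium channel, was at 1.87 and 4.20 TPM in old MIT-001 and at most 0.107 TPM in PBS libraries. The bicarbonate cotransporter gene Slc4a4 had a log2 fold change of 1.41, the water channel gene Aqp5 2.11 ± 0.75, and Fxyd3 was at 14.9 and 1.07 TPM in the old MIT-001 pair. Of 15 recycling and apical trafficking genes 10 were higher and 1 lower, beside the same shares, with a median of 0.44. Rab17 (2.08), Mal2 (3.23 ± 0.61), Sytl1 (2.32) and Rab11fip1 (1.15) had the smallest p among them.

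None of these 5 lists and the list of Müllerian genes held a gene that passed limma in the fit of all 6 libraries, where 3 of 16473 genes passed. At an unadjusted p below 0.05 they had 7 of 10 Müllerian, 13 of 20 junction, 6 of 10 protease, 3 of 12 transcription, 4 of 11 transport and 4 of 15 trafficking genes tested higher, and 0 lower. Of all genes tested, 7.45% were higher and 4.36% lower at that threshold. In a fit of only the 4 libraries compared, with the same 1.22% of all genes higher, 1, 5, 2, 2, 0 and 2 passed in the same order. Among those were Muc1, then Cdh1, Cldn3, Cgn and Ap1m2, then St14 and Spint1, then Elf3 and Grhl2, then Mal2 and Sytl1. Grhl2, Cldn8 and Scnn1b reached 1 TPM only in the old MIT-001 libraries and so could be tested only because they were high there.

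**Figure D3:**
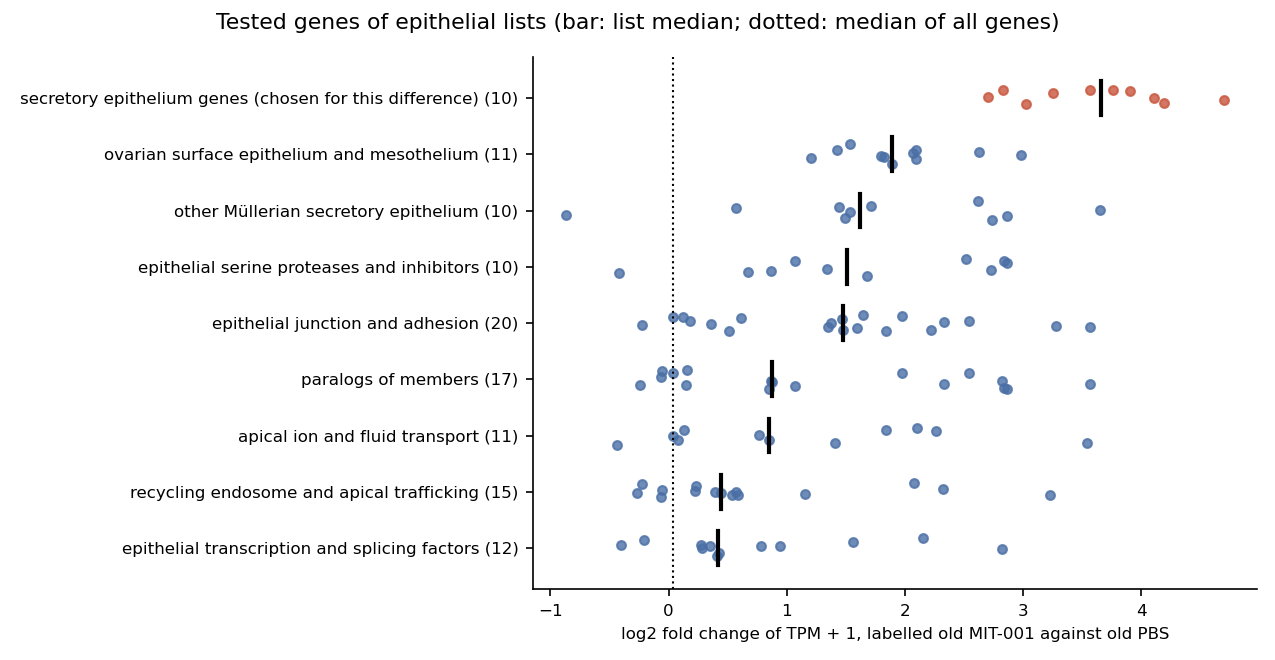
Log2 fold changes of TPM + 1, old MIT-001 against old PBS as labelled, for the tested genes of each list (number in brackets), with the list median as a bar and the median of all genes dotted at 0.03. The 10 chosen genes have a median of 3.66, junction genes 1.48 and trafficking genes 0.44.

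Markers of surface epithelium and mesothelium moved with the 10 genes, while those of ciliated cells, given further on, were divided. The part of these cell types in the result was not tested. All 11 genes of surface epithelium and mesothelium were higher in old MIT-001 than in old PBS without overlap, where 27.2% of genes tested were. Their summed level was 812 and 845 TPM in old MIT-001, 324 and 408 TPM in young PBS and 211 and 215 TPM in old PBS. Krt18, a keratin of simple epithelia, was the gene of this list past limma, with a log2 fold change of 2.63 ± 0.18 (adjusted p 0.0343), and Krt7 was at 2.98 ± 0.30, Upk3b at 2.07 and Wt1 at 1.80. Krt18 was not past the threshold when any 1 of the libraries labelled old MIT-001 or old PBS was left out, and 7 of the 11 genes passed as higher in the fit of only the 4 libraries compared, where 1.22% of genes did.

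Ciliated cells are the partners of secretory cells in the oviduct. Their 12 markers summed to 56.6 and 340.2 TPM in the old MIT-001 libraries, to 80.1 and 46.2 TPM in young PBS and to 74.7 and 63.5 TPM in old PBS. Foxj1, the regulator of motile cilia, was at 0.867 and 67.0 TPM in old MIT-001 and between 1.07 and 4.08 TPM in the other 4 libraries, and Tppp3 was at 37.5 and 129 TPM in old MIT-001. Replicate 1 labelled old MIT-001, which had the highest level of 9 of the 10 secretory genes, had the lowest Foxj1 of all libraries. Ccno, also known from oocytes, went the other way, at 3.84 and 3.23 TPM against 27.9 and 25.7 TPM in old PBS, a large part of the old PBS sums. Of the 12 markers 4 were higher in old MIT-001 than old PBS without overlap and 1 lower, where 15.5% and 11.9% of all 45679 genes were.

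Kidney and thyroid markers were low. Of 9 kidney and thyroid genes 4 were listed at 0 in all libraries (Umod, Slc34a1, Nphs1 and Nkx2-1) and 8 stayed below 1 TPM in all. Of 9 uterine gland and tract position genes, 2 were higher in old MIT-001 than old PBS without overlap and 0 lower, beside 15.5% and 11.9% of all 45679 genes. Hoxd10 was at 25.6 and 32.0 TPM in old MIT-001 against 6.65 to 13.0 TPM elsewhere and Hoxa10 at 3.35 and 1.16 TPM against at most 0.507 TPM. Hoxa10 reached 1 TPM only in old MIT-001 and so could be tested only because it was high there. The gland genes Cxcl15, Prss28 and Prss29 were at most 0.0617 TPM in old MIT-001, and Prss29 was at 1.68 TPM in young PBS replicate 2. Foxa2, a uterine gland factor, reached 3.02 TPM in old MIT-001 replicate 2 and was below 1 TPM in the other 5 libraries, with 0 in old MIT-001 replicate 1. Oocyte genes summed to 79.6 and 39.8 TPM in old MIT-001, 281 and 33.6 TPM in young PBS and 423 and 450 TPM in old PBS, and macrophage genes to 352 and 329, 790 and 785, and 127 and 146 TPM. Plasma and B cell genes summed to 1036 and 102, 1600 and 208, and 22.0 and 23.1 TPM, and fat cell genes to 95.9 and 111, 315 and 57.3, and 28.9 and 46.7 TPM. Without overlap between old MIT-001 and old PBS, all 8 oocyte genes were lower. All 6 macrophage genes, 3 of 6 plasma and B cell genes and 5 of 6 fat cell genes were higher in that way. The remaining fat cell gene, Plin1, was lower, at 7.78 and 20.1 TPM against 23.8 and 32.5 TPM in old PBS. Over all 45679 genes 15.5% were higher without overlap and 11.9% lower. The part of these cell types in the result was not tested either.

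**Figure D4:**
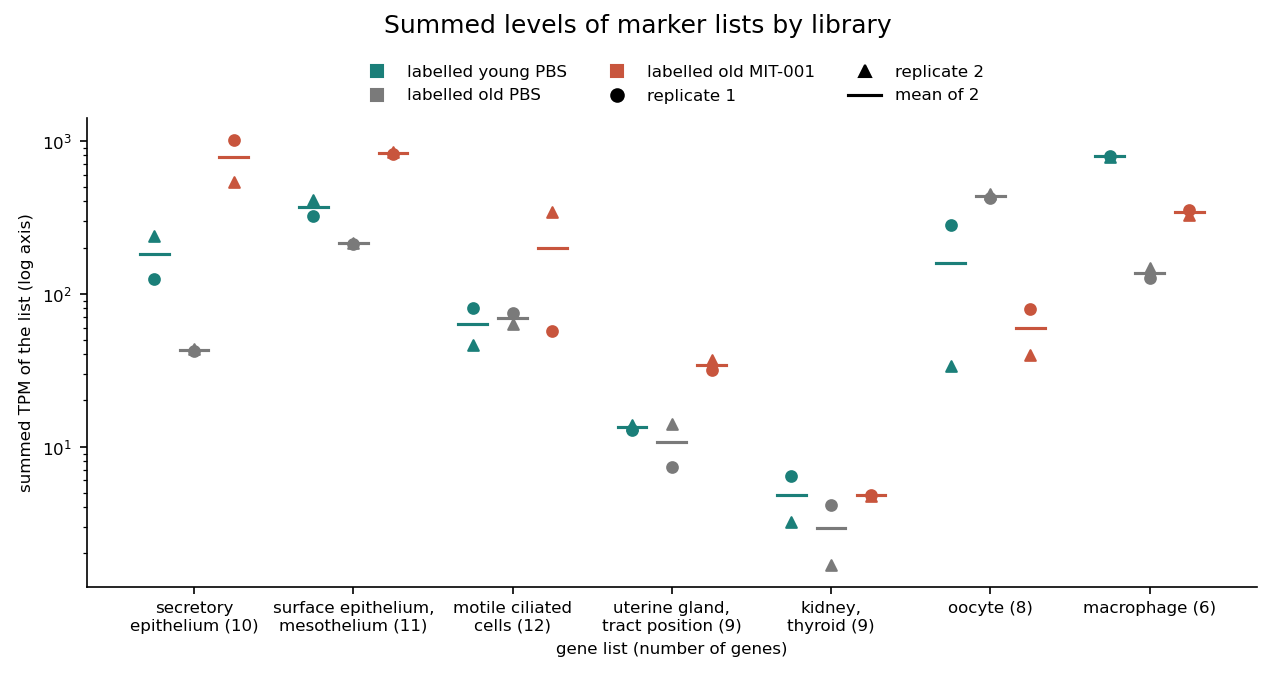
Summed TPM on a log axis for 7 gene lists in 6 libraries, with colour for the labelled group, circles and triangles for replicates 1 and 2 and bars for the mean of 2. The ciliated list separates the old MIT-001 pair (56.6 and 340.2 TPM), while the kidney and thyroid list stays at or below 6.41 TPM.

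Among 11614 other protein-coding genes with a mean of at least 5 TPM in their highest group, those closest to the shared pattern were found by the mean absolute difference of centred log2(TPM + 1) over the 6 libraries from the median of the 10 genes. Among the 8 closest were Cyp2f2 (0.21), Plekhs1 (0.22), Slc14a1 (0.28), Egfl6 (0.28), Tspan1 (0.29), Krt7 (0.32) and Cdh1 (0.32). Cyp2f2, a cytochrome P450 gene, was at 9.72 and 10.7 TPM in old MIT-001, at 1.43 and 3.38 TPM in young PBS and at 0.377 and 0.113 TPM in old PBS. Plekhs1 was at 13.5 and 7.49 TPM, at 1.30 and 0.966 TPM, and at 0.164 and 0.0236 TPM. Slc14a1, a urea transporter gene, was at 18.1 and 16.3 TPM in old MIT-001 and between 1.36 and 5.43 TPM in the PBS libraries. Within the 10 genes the distance ran from 0.12 for Cldn7, 0.17 for Vtcn1 and 0.19 for Rab25 to 0.60 for Ovgp1 and Plet1 and 0.88 for Wfdc2, so 6 genes outside the list lay nearer its median than 7 of its own genes.

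Of the genes that overlap the 10, all but Gm32720 stayed below 1 TPM. Plet1os, antisense to Plet1 over 10281 bases, was at 0.125 to 0.691 TPM, and Gm13415, antisense to Pax8, at most 0.151 TPM. Gm32720, antisense to part of Vtcn1, was at 2.21 and 1.19 TPM in old MIT-001 and at 0 and 0.0593 TPM in old PBS. In young PBS it was at 1.08 and 0 TPM, in replicate 1 above Vtcn1 at 0.913 TPM. With no stated strand setting, reads of such pairs cannot be separated.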

How the data were processed

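Ovary RNA was extracted with TRIzol and made into libraries with a SMARTER mRNA kit, per the labels' protocols. The submitters' processing notes name Trimmomatic (read trimming), HISAT2 (alignment), StringTie (quantification) and the mm10 build; their versions, the annotation and the strand setting are not stated there. The deposited TPM values, as StringTie writes them, were the main measure. The deposited FPKM values are proportional to TPM within a file (ratio 1.89 to 2.31) and served as an alternative. The deposited coverage signal gives the average depth of reads on a gene, per the file headers. The files hold no read counts, and the error of each value is the spread of 2 libraries.

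Gene IDs were matched to symbols in a RefSeq table (GRCm38.p6); 98 rows per library did not match. Values of log2(TPM + 1) of the 16473 genes with at least 1 TPM in at least 2 libraries were fitted with limma 3.58.1 (R 4.3.3, intensity trend, 1 mean per group, 6 libraries, two-sided), adjusted by Benjamini-Hochberg over all genes and called below 0.05. The script was tested on simulated data.

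The 10 genes and 17 other lists (184 genes) were chosen with earlier results of these data known. Genes were named from lists by the smallest unadjusted p in old MIT-001 against old PBS (up to 4 a list), with fixed relatives of the 10 genes and the 8 genes of closest pattern; a few genes that this rule names are not reported here. Alternatives were the pseudocount, filter, unit, scaling, libraries fitted, a replicate block and each library left out.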

Additional observations from a re-analysis of the deposited data

How the results depend on the processing

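For old MIT-001 against old PBS 3 genes were called, and 103 with no filter, 1 with FPKM, 1 after median centring, 356 with only the 4 libraries compared and 0 to 372 with 1 library left out (358 and 372 without young PBS replicate 1 or 2, and 0 without each of the other 4). The 10 genes were among those called in the fits of 356, 358 and 372, in the contrast that chose them. For old PBS against young PBS 6 genes were called, and 46 with no filter, 11 with FPKM, 15 after centring, 17 after quantile normalization, 0 with only the 4 libraries compared and 0 to 948 with 1 left out (948 and 14 without young PBS replicate 1 or 2, and 0 without each of the other 4). For old MIT-001 against young PBS 0 were called (2820 higher and 134 lower at an unadjusted p below 0.05 by limma), and 60 with no filter. With a replicate block the counts were 0, 1 and 0; replicates share only a number, and their deviations correlated at 0.0066, 0.24 and 0.18 between groups. The median log2 fold change of the 10 genes, 3.66, -1.42 and 2.16 in these comparisons, was 4.57, -2.28 and 2.56 with a pseudocount of 0.1. It was 2.99 and 1.66 in the first and last with FPKM, -1.74 and 1.74 in the last 2 after centring, and 1.74 in the last after quantile normalization. With 1 library left out it was 3.34 to 3.84, -1.56 to -1.14 and 1.90 to 2.41, where a lone library was assumed to vary like the others. Over 14 alternatives for each gene, 140 of 140, 140 of 140 and 139 of 140 values kept their direction; Wfdc2 in old MIT-001 against young PBS was at -0.33 without young PBS replicate 1 and at 1.86 without young PBS replicate 2. The cause of these changes was not tested. Low depth limits the old PBS values of Vtcn1, Pax8 and Cldn7 most.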
